A study of Mus musculus with 4 samples.

Results

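The interferon-inducible GTPases described here are a list of 10 gene names: the guanylate-binding proteins Gbp2, Gbp3 and Gbp6, the immunity-related GTPases Igtp, Irgm1, Irgm2, Iigp1, Ifi47 and Tgtp1, and the very large GTPase Gvin1. A gene was taken where the array's annotation carried that name, which held for 9 of the 10 names among 31824 names on the array. These 9 genes were read by 22 spots with 13 different probe sequences, and 4 of the genes had more than 1 sequence. No spot carried the name Tgtp1, and the probe named Gbp6 matched the gene that is now called Gbp7 by its accession, so both are taken up again below. The list was drawn up with values of these same arrays in view, from all 4 conditions. The levels and ratios of its members are therefore a description, with no test.

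The series measured RNA of mouse embryonic fibroblasts (MEFs), connective tissue cells grown from embryos, on one-color Agilent arrays. Wild-type (WT, p53+/+) MEFs and p53-/- MEFs, which carry no intact copy of the tumor suppressor gene Trp53, were each taken untreated or treated with doxorubicin, a drug that traps topoisomerase II and breaks DNA. Each of the 4 conditions had 1 array, all on 1 slide, so differences have no replicate check. Slide position and condition cannot be told apart. The dose and time of doxorubicin for the arrays, the mouse strain, the age of the embryos and the number of cultures are not given in the sources used here.

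Interferons bind receptors that activate JAK kinases and STAT transcription factors, and these factors switch on genes through short promoter elements, the interferon-stimulated response element (ISRE) and the gamma-activated site (GAS). Guanylate-binding proteins and immunity-related GTPases are made in large amounts under interferon and are known for gathering on the vacuoles of intracellular parasites and bacteria. Regulatory immunity-related GTPases (Igtp, Irgm1 and Irgm2) sit on the cell's own membranes and keep the effector GTPases (Iigp1, Ifi47 and Tgtp1) inactive there. Fibroblasts are among the cell types that can make these proteins.

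The promoter elements of the genes are shown first because the list is defined by a shared inducer. Promoters were those of RefSeq, build GRCm38.p6, from 250 bases before to 50 bases after the start of a gene. Of 12 current names looked up (those of the array's probes plus Tgtp1, Tgtp2 and Gbp6), 9 were matched, with 10 promoters. Gbp6, Iigp1 and Gvin1 were not matched, so their promoters were not searched. The matched promoters were searched on both strands for GAAANNGAAA (ISRE, reverse TTTCNNTTTC) and TTCNNNGAA (GAS, the same on both strands), which can overlap. An ISRE match was found for 8 of the 9 genes and a GAS match for 5. Of all 32851 promoters of that table, 3.44% held an ISRE match, 8.30% a GAS match and 0.454% both. Igtp, Irgm2, Tgtp1 and Tgtp2 had the same arrangement, a GAS match followed 2 bases later by an ISRE match. Such a pair, with at most 5 bases between the matches, occurred in 11 of the 32851 promoters (0.0335%), of which these were 4. The other 7 belonged to Bst2, E030007A22Rik, Etv6, Gm12185, Gm32670, Usp17lc and Usp17ld. The promoters of Igtp and Irgm2, and those of Tgtp1 and Tgtp2, are close copies around the pair, so these matches are not independent of each other. The 4 pairs are printed 5′ to 3′ on the strand of the gene, with the matches in capitals, GAS first.
Igtp (chr11:58199507-58199535, plus strand): ccatTTCTAGGAActGAAACTGAAAgctg
Irgm2 (chr11:58214898-58214926, plus strand): ccatTTCCAGGAActGAAACTGAAAgctg
Tgtp1 (chr11:48992310-48992338, minus strand): ccatTTCCAGGAAtcGAAACTGAAAccta
Tgtp2 (chr11:49064269-49064297, minus strand): ccatTTCCAGGAAtcGAAACCGAAAccta

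Gbp2, Gbp3, Gbp7 and Irgm1 had ISRE matches without such a pair. They are shown because they carry the ISRE match of the other genes. The ISRE match is in capitals, and in the guanylate-binding protein promoters it runs in the reverse orientation. Gbp3 and Irgm1 each had a second ISRE match that overlaps the one shown, and Gbp7 had 2 GAS matches farther upstream. The second promoter that RefSeq lists for Gbp3 had no match, and neither had that of Ifi47.
Gbp2 (chr3:142620594-142620623, plus strand): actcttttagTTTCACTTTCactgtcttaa
Gbp3 (chr3:142559989-142560018, plus strand): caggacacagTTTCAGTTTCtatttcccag
Gbp7 (chr3:142530273-142530302, plus strand): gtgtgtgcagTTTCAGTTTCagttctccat
Irgm1 (chr11:48871431-48871460, minus strand): cctgtttcaaGAAATAGAAAccgaaactga

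**Figure D1:**
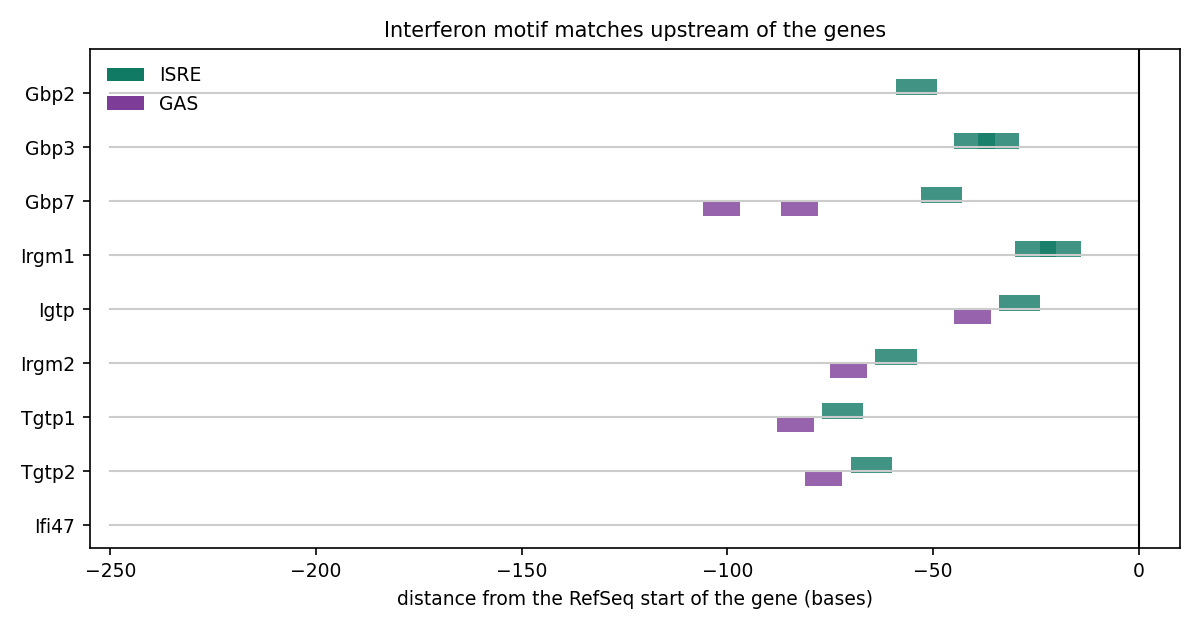
Position of the ISRE matches (green, above each line) and GAS matches (purple, below) on the horizontal axis, in bases from the RefSeq start of each gene. Matches lie close upstream of the start, the GAS match of Igtp, Irgm2, Tgtp1 and Tgtp2 next to the ISRE match, and Ifi47 has none in this window.

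Levels are given as percent of the 75th percentile of the processed signals on the same array, and ratios as log2 of these levels. A probe was called measured where the scanner software marked it as well above background. The lowest signals so marked were 2.44 to 3.60% of the 75th percentile over the 4 arrays. The brightest of 153 negative control spots reached 5.22% in untreated WT, 4.26% in treated WT, 13.3% in untreated p53-/- and 4.94% in treated p53-/- MEFs, so low values, in untreated p53-/- MEFs above all, are within reach of background. Among 253 probes spotted 10 times, the SD between spots was 0.11 for a log2 ratio and 0.16 for a difference of 2 such ratios, which covers spots on an array only. Trp53 itself stood at 59.2% in untreated WT, 189% in treated WT, 23.5% in untreated p53-/- and 22.4% in treated p53-/- MEFs. The position of its probe relative to the deletion was not analysed here. All 12 fibroblast markers looked at were well above background on all 4 arrays, but 4 were at least 2-fold lower with doxorubicin in WT MEFs (Lum −4.81, Pdgfra −3.36, Pdgfrb −2.44 and Dcn −1.30 on the log2 scale) and 2 in p53-/- MEFs (Lum −2.34 and Pdgfrb −1.73).

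In p53-/- MEFs, all 9 genes were at least 2-fold higher with doxorubicin than without, with a median log2 ratio of 3.70 (13.0-fold) and a range of 1.62 to 5.76. Of all 16978 genes measured in this comparison, 9.24% were that much higher. In WT MEFs, 4 of the 8 genes with a measured ratio were at least 2-fold higher, Gbp2, Gbp3, Igtp and Irgm1, and the median was 1.16 with a range of −0.38 to 3.52. Of all 17546 genes measured there, 11.0% were that much higher. The median log2 ratio of all genes was 0.01 in WT and 0.00 in p53-/- MEFs. In bulk RNA, a few cells with much of a transcript and many cells with little of it cannot be told apart.

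Gbp2, a guanylate-binding protein that gathers on pathogen vacuoles, stood at 34.3% in untreated WT, 96.6% in treated WT, 29.9% in untreated p53-/- and 1471% in treated p53-/- MEFs. Both untreated arrays were low and close to each other, and treated p53-/- MEFs stood far above the rest. Its log2 ratio of treated over untreated cells was 1.49 (2.82-fold) in WT and 5.62 (49.3-fold) in p53-/- MEFs, a difference of 4.13. Gbp3, a close relative encoded beside it, stood at 9.99% in untreated WT, 115% in treated WT, 11.6% in untreated p53-/- and 628% in treated p53-/- MEFs. Here treated WT MEFs were also well above both untreated arrays. The log2 ratios were 3.52 (11.5-fold) in WT and 5.76 (54.3-fold) in p53-/- MEFs, the largest measured ratio in WT MEFs. The untreated p53-/- value of Gbp3 was below the brightest negative control of its array, and set against that control, the treated value was 47.3-fold higher. The order of Gbp3 and Gbp2 in p53-/- MEFs turns with this limit, and with another background correction (normexp) Gbp2 had 5.46 and Gbp3 5.28.

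The probe that the array names Gbp6 lists a transcript that RefSeq assigns to Gbp7. It stood at 1.95% in untreated WT MEFs, where it was not well above background, and at 12.05% in treated WT, 5.17% in untreated p53-/- and 67.1% in treated p53-/- MEFs. It was thus lowest in both untreated cultures and highest in treated p53-/- MEFs. The log2 ratio was 3.70 (13.0-fold) in p53-/- MEFs, or 5.05-fold against the brightest negative control spot of untreated p53-/- MEFs. In WT MEFs it was at least 4.41-fold higher with doxorubicin, since its untreated level was replaced by the dimmest signal that passed as well above background. Against the brightest negative control of untreated WT MEFs it was 2.31-fold higher. A second sequence under the same name was not well above background on any array. The transcript of today's Gbp6 is listed under the array name Mpa2l, whose brighter probe stood at 11.5% in untreated WT, 20.2% in treated WT, 15.0% in untreated p53-/- and 50.2% in treated p53-/- MEFs. The log2 ratio was 0.81 in WT MEFs and 1.74 in p53-/- MEFs, smaller than those of the other guanylate-binding proteins described so far. A second Mpa2l sequence, which lists transcripts of both Gbp10 and Gbp6, gave a much larger difference. It was not well above background on 3 arrays and stood at 94.3% in treated p53-/- MEFs. By the bound this was at least 30.6-fold higher than in untreated p53-/- MEFs, or 7.09-fold against their brightest negative control. The 2 sequences thus disagree on the size of the response.

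Among the regulatory GTPases, Igtp (Irgm3) was the gene with 10 spots on each array. It stood at 23.8% in untreated WT, 145% in treated WT, 26.8% in untreated p53-/- and 672% in treated p53-/- MEFs. The SD of its log2 spot signals was between 0.06 and 0.12 over the 4 arrays, so the step with doxorubicin was far larger than the spread between spots in both genotypes. The log2 ratio was 2.60 (6.08-fold) in WT and 4.65 (25.1-fold) in p53-/- MEFs. Irgm2, encoded beside Igtp, stood at 20.8% in untreated WT, 36.6% in treated WT, 15.7% in untreated p53-/- and 350.1% in treated p53-/- MEFs. Of these arrays, only that of treated p53-/- MEFs stood apart. The log2 ratio of Irgm2 was 0.82 (1.76-fold) in WT and 4.48 (22.4-fold) in p53-/- MEFs, a difference of 3.67. Igtp and Irgm2, which share the GAS and ISRE pair printed above, thus had similar ratios in p53-/- MEFs and different ones in WT MEFs.

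Irgm1, a regulator of lysosomal and mitochondrial membranes, stood at 190% in untreated WT, 586% in treated WT, 196% in untreated p53-/- and 962% in treated p53-/- MEFs. Both treated arrays were above both untreated ones. Its log2 ratio was 1.62 (3.08-fold) in WT and 2.30 (4.91-fold) in p53-/- MEFs, and the difference, 0.67, was the smallest of the 8 that could be formed. The second Irgm1 sequence stood at 35.8% in untreated WT, 126% in treated WT, 53.5% in untreated p53-/- and 213% in treated p53-/- MEFs. Its ratios were 1.81 in WT and 1.997 in p53-/- MEFs, closer to each other than those of the first sequence. Irgm1 was thus the gene whose response differed least between the genotypes.

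Among the effector GTPases, which bind to and disrupt parasite vacuoles, Iigp1 (Irga6) stood at 17.2% in untreated WT, 20.4% in treated WT, 22.1% in untreated p53-/- and 68.1% in treated p53-/- MEFs. Treated p53-/- MEFs were high and the other arrays lay close together. The log2 ratio was 0.25 in WT and 1.62 (3.08-fold) in p53-/- MEFs. Its second sequence was well above background only in treated p53-/- MEFs, at 24.9%. By the bound this was at least 8.09-fold higher than in untreated p53-/- MEFs, but 1.87-fold against their brightest negative control. Ifi47 (Irgd) stood at 22.6% in untreated WT, 17.4% in treated WT, 22.3% in untreated p53-/- and 149% in treated p53-/- MEFs. It was lower with doxorubicin in WT MEFs, the only one of the 8 measured genes on that side, with −0.38 on the log2 scale. With p53 absent, the log2 ratio was 2.74 (6.70-fold). Among the genes with a matched promoter, Ifi47 was also the one whose RefSeq window held neither motif. The promoters of Iigp1 and Gvin1 were not searched.

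Tgtp1 (Irgb6) has no spot under that name. The probe named Tgtp stood at 3.79% in untreated WT, 7.61% in treated WT, 1.02% in untreated p53-/- and 5.23% in treated p53-/- MEFs. The untreated p53-/- value was not well above background, and the others were within 2-fold of the brightest negative control. The brighter probe named Tgtp2 lists transcripts of both Tgtp1 and Tgtp2, which are near-identical genes, so its signal cannot be assigned to either one. It stood at 23.1% in untreated WT, 88.7% in treated WT, 23.7% in untreated p53-/- and 645% in treated p53-/- MEFs. The order of the arrays was that of Igtp, and the log2 ratio was 1.94 in WT MEFs and 4.77 in p53-/- MEFs. The probe named Tgtp lists the same transcripts, and the 2 probes did not give similar ratios.

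Gvin1 encodes a very large inducible GTPase whose role is little known. It stood at 16.7% in untreated WT, 26.5% in treated WT, 11.0% in untreated p53-/- and 36.5% in treated p53-/- MEFs. The 2 treated arrays were above the 2 untreated ones, and treated p53-/- MEFs were not far above treated WT MEFs. The log2 ratio was 0.66 in WT and 1.74 (3.33-fold) in p53-/- MEFs, or 2.74-fold against the brightest negative control of the untreated p53-/- array. The second sequence gave 0.81 in WT and 2.38 in p53-/- MEFs. The first sequence also lists transcripts of Gm8979 and Gm8989, relatives of Gvin1, so RNA of these genes may add to its signal.

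**Figure D2:**
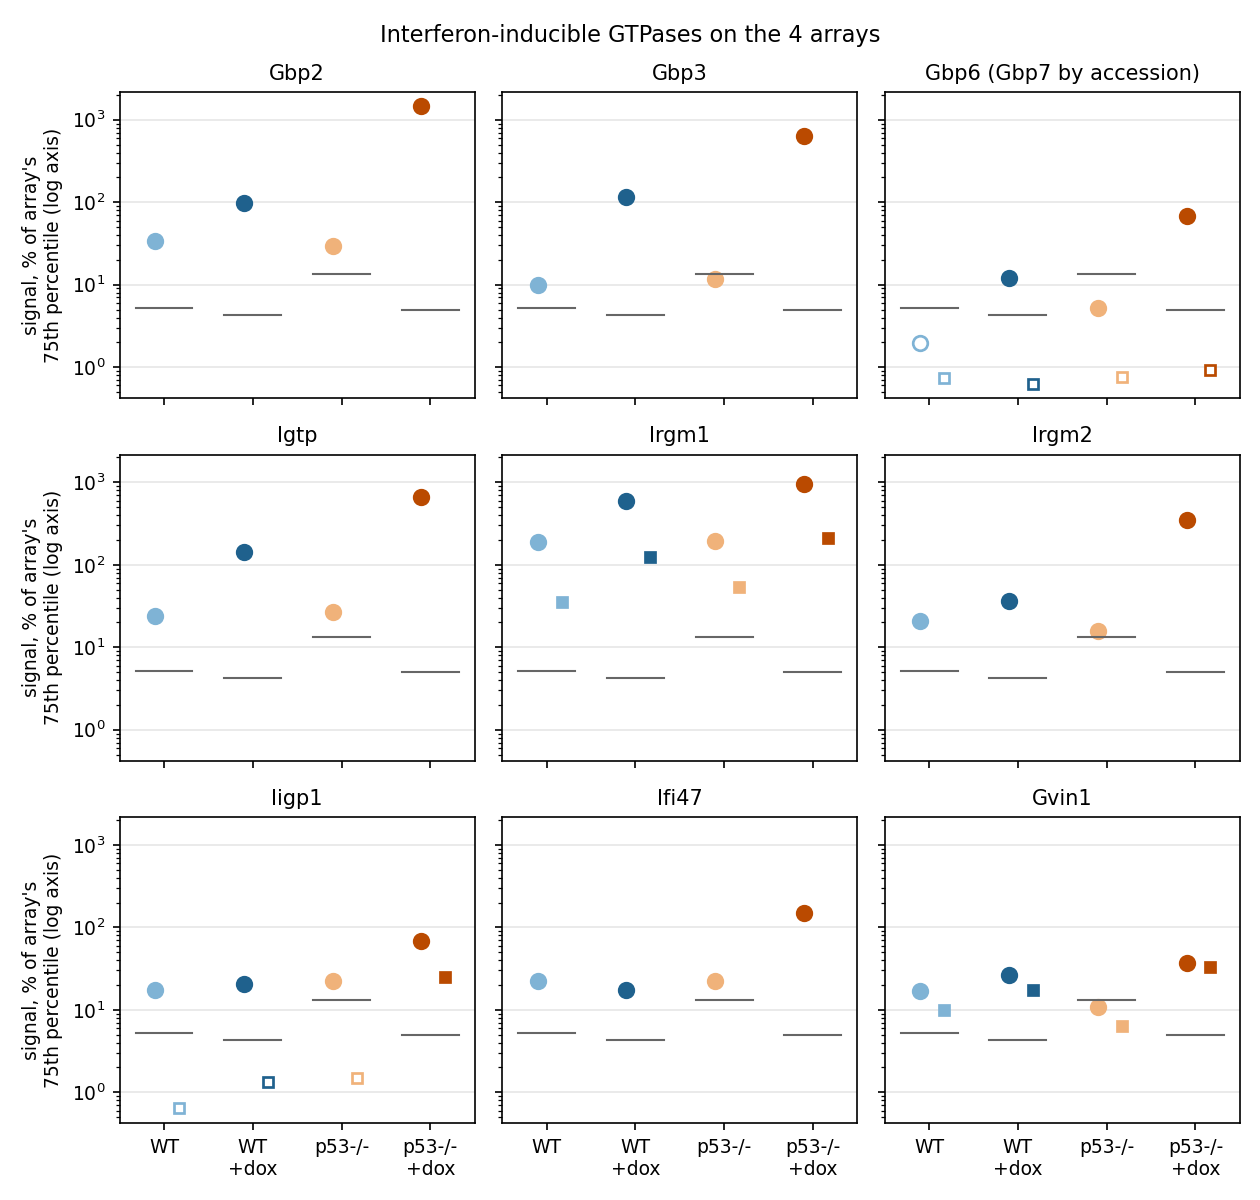
Level of each gene on the 4 arrays, as percent of the array's 75th-percentile signal on a log axis. Circles are the brighter sequence, squares a second sequence, open symbols values not well above background, and gray bars the brightest negative control of that array. In all 9 panels the circle for doxorubicin-treated (+dox) p53-/- MEFs is the highest.

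Without doxorubicin, 0 of the 8 genes that could be compared were 2-fold apart between p53-/- and WT MEFs. The median log2 ratio was 0.01, from −0.61 for Gvin1 to 0.37 for Iigp1. Of all 17317 genes measured in both, 4.77% were at least 2-fold apart. Only 6 of the 9 genes were above the brightest negative control in untreated p53-/- MEFs, so a small difference there was not detectable for Gbp3, the probe named Gbp6 and Gvin1. With doxorubicin, 7 of the 9 genes were at least 2-fold higher in p53-/- than in WT MEFs, and the median log2 ratio was 2.46 (5.49-fold). Of all 17918 genes measured in both, 11.9% were that much higher. The largest ratio was that of Gbp2, 3.93 (15.2-fold), followed by Irgm2 with 3.26 (9.56-fold) and Ifi47 with 3.103 (8.59-fold). Irgm1 with 0.72 and Gvin1 with 0.46 stayed below 2-fold.

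The difference between the responses of the genotypes was at least 2-fold for 7 of the 8 genes measured on all 4 arrays, always larger in p53-/- MEFs, with a median of 2.15 on the log2 scale. Of all 16538 genes measured on all arrays, 9.86% had a response that much larger in p53-/- MEFs. The order ran from Gbp2 (4.13), Irgm2 (3.67) and Ifi47 (3.12) over Gbp3 (2.25), Igtp (2.05), Iigp1 (1.37) and Gvin1 (1.07) to Irgm1 (0.67). Neighbors in this order such as Gbp3 and Igtp, or Iigp1 and Gvin1, lay less than 2 SDs apart, taking 0.16 between spots for 1 such difference. This SD holds for a single spot per array, while Igtp was read by 10, and no SD was calculated for the gap between genes. The size of the response in one genotype did not fix that in the other. Gbp2 and Gbp3 had nearly the same ratio in p53-/- MEFs but 2.82-fold and 11.5-fold rises in WT MEFs, and Irgm2 and Igtp were set apart in the same way.

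**Figure D3:**
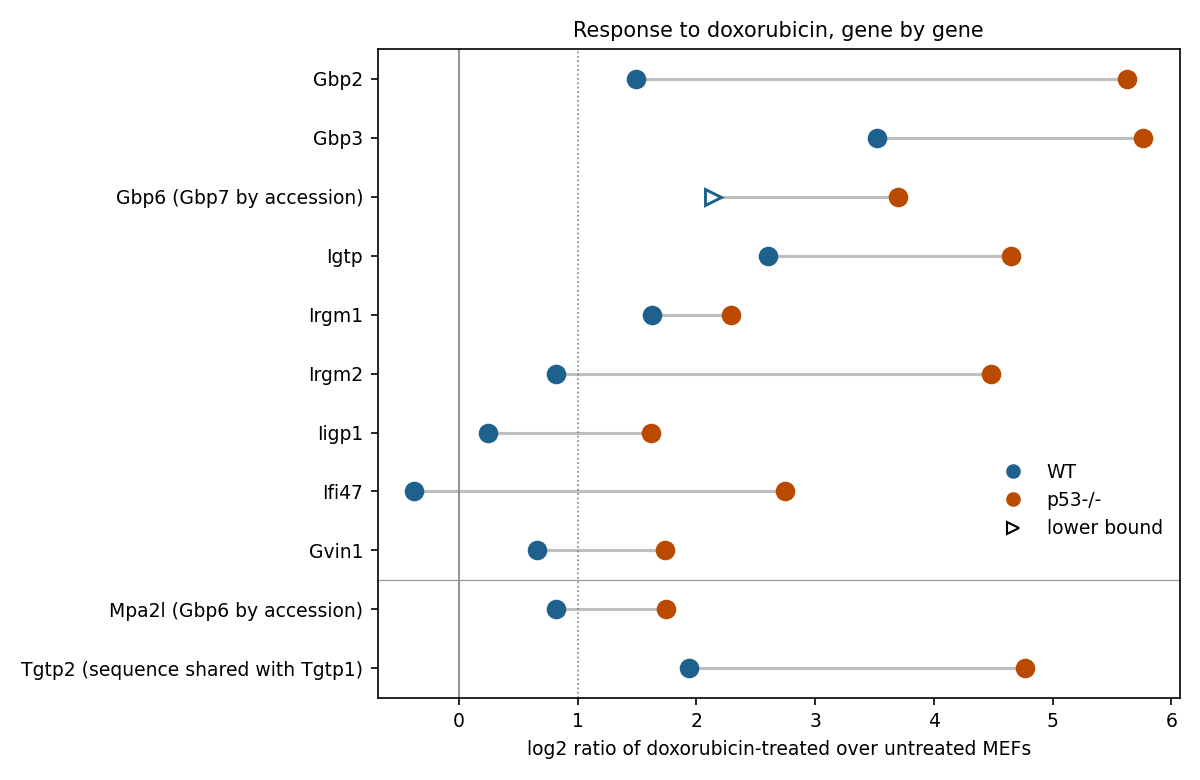
Log2 ratio of doxorubicin-treated over untreated MEFs for WT (blue) and p53-/- (orange) on the horizontal axis, 1 line per gene. The triangle is a lower bound, the dotted line is 2-fold, and the genes under the gray line are no members by name. Every orange point lies right of the blue symbol, with the longest gap for Gbp2 and the shortest for Irgm1.

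Other GTPases of these families on the array were looked at as a list of 18. The list holds the names Mpa2l, Tgtp and Tgtp2, whose probes are described above for Gbp6 and Tgtp1. A ratio was measured for 8 of them in p53-/- MEFs, of which 6 were at least 2-fold higher with doxorubicin, and another 5 came above background with a bound of at least 2-fold. In WT MEFs, 2 of 8 measured ratios were at least 2-fold, with 1 more by its bound. These 2 were Tgtp2 and Tgtp, and Tgtp2 and Mpa2l were among the 6 in p53-/- MEFs. The counts thus partly repeat the genes above. Of all measured genes, 9.24% were that much higher in p53-/- and 11.0% in WT MEFs. The medians of the list were 1.63 and 0.57 on the log2 scale. Mx2, a dynamin-like antiviral GTPase, stood at 2.35% in untreated WT, where it was not well above background, 15.3% in treated WT, 5.06% in untreated p53-/- and 210% in treated p53-/- MEFs. Its log2 ratio in p53-/- MEFs was 5.38, or 15.8-fold against the brightest negative control, which is below the 27.2-fold of the Tgtp2 probe. Gbp9 was 2.66 in p53-/- and −0.05 in WT MEFs. Gm12250 (1.52) and Gbp10 (1.19) were smaller in p53-/- MEFs, with 0.60 and 0.54 in WT MEFs. Against the brightest negative control of untreated p53-/- MEFs, Gbp9 was 3.08-fold, Gbp10 1.44-fold and Gm12250 1.01-fold higher, so the last 2 lose their call there. The Gbp10 probe also lists Gbp6 transcripts. Gm5431, at −0.42 in p53-/- and −0.05 in WT MEFs, was not 2-fold apart in either. Gbp4, Mx1, Gm4951, Gbp5 and F830016B08Rik came above background in treated p53-/- MEFs, and of these only Gm4951, at 4.59-fold, was more than 2-fold above that control. Gbp1 (now Gbp2b) went the other way, at 5.05% in untreated WT and 5.88% in untreated p53-/- MEFs and not well above background in treated MEFs, all near the negative controls. Irgq, a relative without known induction by interferon, stood between 77.1 and 107.4% on the 4 arrays. Not well above background on any array were Gbp8, Irgc1 and Iigp1b.

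Interferon signaling genes were a list of 24, holding ligands, receptors, kinases, transcription factors and feedback inhibitors. With p53 absent, 5 of 18 measured genes were at least 2-fold higher with doxorubicin and 0 were lower, with 3 more higher by their bound. In WT MEFs 1 of 19 was higher and 1 lower. Of all measured genes, 9.24% were that much higher in p53-/- and 11.0% in WT MEFs. Of the ligands, Ifnb1 was not well above background on 3 arrays and stood at 13.9% in treated p53-/- MEFs, which is 1.05-fold against the brightest negative control of untreated p53-/- MEFs. Ifng was at 3.73% in treated WT and 4.98% in treated p53-/- MEFs, near the brightest negative controls there, and not well above background in untreated cells. The receptor chain Ifngr2, a part of the receptor for interferon gamma, was 0.75 in WT and 0.88 in p53-/- MEFs on the log2 scale. Among the transcription factors, Stat2 and Irf9, which act together on ISRE sites, were 2.45 and 1.79 in p53-/- MEFs and 0.59 and 0.51 in WT MEFs. Irf1, which binds ISRE-like sites, stood at 296% in untreated WT, 182% in treated WT, 312% in untreated p53-/- and 951% in treated p53-/- MEFs. Its log2 ratios had opposite signs, −0.70 in WT MEFs and 1.61 in p53-/- MEFs. Irf7, which amplifies interferon production, was above background only with doxorubicin, at 17.5% in WT and 124% in p53-/- MEFs.

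Feedback inhibitors differed among themselves. Usp18, which removes ISG15 and damps the type I interferon receptor, stood at 7.15% in untreated WT, 299.9% in treated WT, 8.64% in untreated p53-/- and 851% in treated p53-/- MEFs. It was the gene of this list with the highest ratio in both genotypes, 5.39 in WT and 6.62 in p53-/- MEFs, or 64.0-fold in p53-/- MEFs against the brightest negative control. WT MEFs thus had a large rise of Usp18 beside a small or no rise of Irgm2, Iigp1, Ifi47 and Gvin1. Socs1, an inhibitor of JAK kinases, was 0.00 in WT and 1.41 in p53-/- MEFs. Socs3, which acts mainly on cytokine receptors of the gp130 type, was −1.93 in WT and −0.27 in p53-/- MEFs, and Stat3 was −0.92 and −0.13.

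Genes that prepare, guide or follow the GTPases at membranes, such as prenylation enzymes, the ATG8 conjugation machinery, inflammasome parts and ubiquitin ligases, were a list of 23. Of 21 genes measured in p53-/- MEFs, 8 were at least 2-fold higher with doxorubicin, and in WT MEFs 4 of 22, with 0 lower in both. Of all measured genes, 9.24% were that much higher in p53-/- and 11.0% in WT MEFs. The medians of the list were 0.65 and 0.44 on the log2 scale. Casp4 (caspase-11), which senses bacterial lipopolysaccharide released with the help of guanylate-binding proteins, stood at 61.1% in untreated WT, 50.1% in treated WT, 56.5% in untreated p53-/- and 497% in treated p53-/- MEFs. Like Ifi47, it was raised only in treated p53-/- MEFs, and its log2 ratio was −0.29 in WT MEFs and 3.14 in p53-/- MEFs. Gsdmd, the pore protein cut by caspases, was 1.09 in WT and 1.71 in p53-/- MEFs. Trim21, an antibody receptor and ubiquitin ligase of the cytosol, was 0.91 and 2.52, and Casp1 was −0.19 and 1.27, the latter 1.23-fold against the brightest negative control. Pycard, the inflammasome adaptor, went the other way, with 3.90 in WT and 1.03 in p53-/- MEFs. The ATG8 genes and their conjugation machinery were mixed. Atg12 was 0.53 in WT and 1.45 in p53-/- MEFs, Map1lc3b 0.46 and 1.17, and Map1lc3a 1.18 and 0.65. Gabarapl1 (0.47 and 0.96) and Gabarapl2 (0.88 and 0.78) were higher by less than 2-fold. Flat or lower in p53-/- MEFs were Gabarap (0.03 and −0.45), Atg7 (−0.01 and −0.63), Atg5 (0.16 and −0.18) and Atg16l1 (0.33 and 0.05). The DNA sensor Aim2 was well above background only in treated p53-/- MEFs, at 17.8%. That is 1.34-fold against the brightest negative control of untreated p53-/- MEFs.

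**Figure D4:**
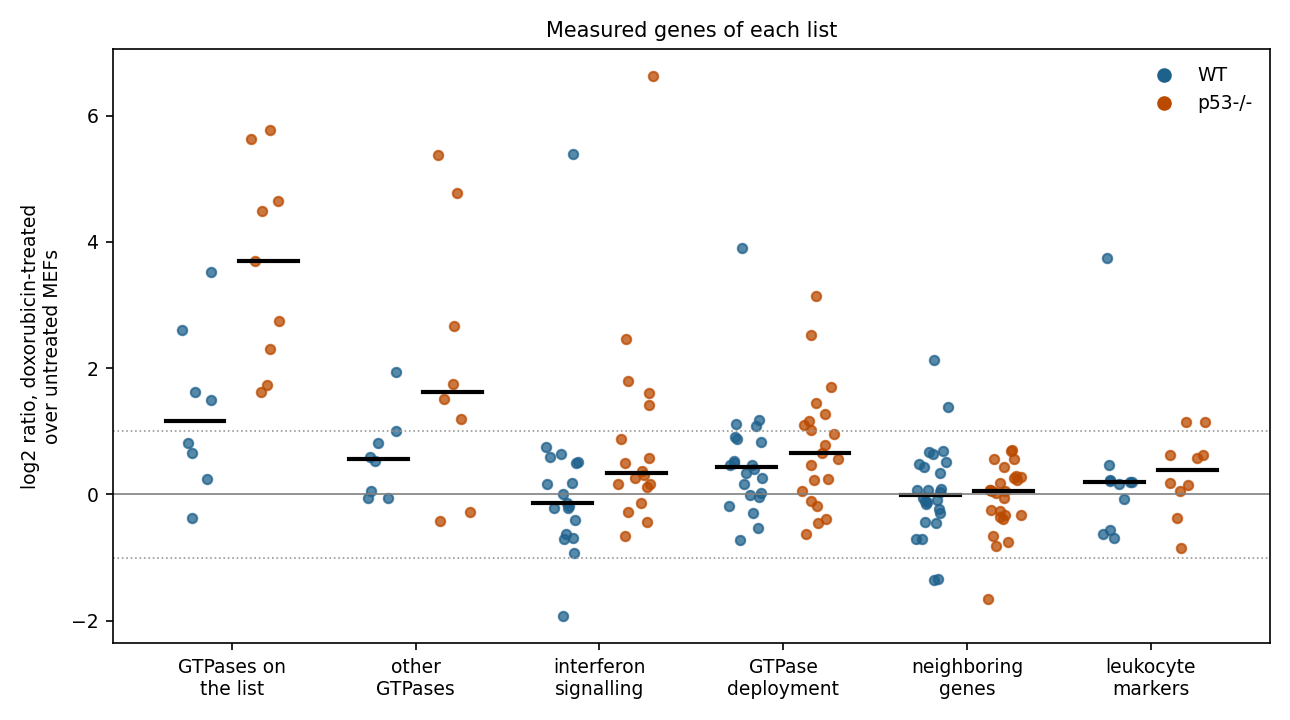
Log2 ratio of doxorubicin-treated over untreated MEFs on the vertical axis for the measured genes of each list, WT in blue and p53-/- in orange, with the median as a black bar and 2-fold as dotted lines. All 9 orange points of the GTPases lie above 2-fold, and 0 of the 26 orange points of the neighboring genes do.

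The genes lie in a few clusters of the genome, given here by the position of their probes in mm9. Gbp2, Gbp3 and the probe named Gbp6 lie between 142209379 and 142300778 on chromosome 3, Irgm1 and Ifi47 between 48679069 and 48910461 on chromosome 11, and Igtp and Irgm2 between 58020927 and 58036152 on the same chromosome. Iigp1 and Gvin1 lie on chromosomes 18 and 7. Genes within 200 kb of these probes numbered 49, leaving out those on the GTPase lists or described as GTPases or guanylate-binding proteins. Of the 49, 26 had measured ratios in either genotype. Whether gene models among them without a descriptive name, such as Gm12185 and LOC100044195, belong to the families was not checked. In p53-/- MEFs, 0 of the 26 were at least 2-fold higher with doxorubicin, beside 9.24% of all genes. One neighbor without a measured ratio, LOC100044195 near Iigp1, came above background in treated p53-/- MEFs, with a log2 ratio of at least 2.29. In WT MEFs 2 were, Trim7 with a log2 ratio of 2.13 and 2010002N04Rik with 1.39. Mgat1, an enzyme of N-glycan synthesis, lies beyond Ifi47 and was −0.11 in WT and 0.07 in p53-/- MEFs. Gtf2b, beside the guanylate-binding proteins, was 0.52 and 0.69.

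Over the 4 arrays, the mean pattern of the 9 genes, each centered on its own mean log2 level, was −1.29 in untreated WT, 0.13 in treated WT, −1.23 in untreated p53-/- and 2.39 in treated p53-/- MEFs. The distance of a gene to this pattern was the root of the summed squared differences over the 4 arrays. Among the members, the probe named Gbp6 (0.75) and Irgm2 (0.79) were nearest and Gbp3 (2.13) farthest. The 8 other genes nearest to the pattern were D14Ertd668e (0.12, now Phf11d), Gm3731 (0.17), Cd274 (0.22), 9330188P03Rik (0.23), 1700001P01Rik (0.26), Bcl2l11 (0.32), Wfdc2 (0.38) and Trim30 (0.39, now Trim30a). Cd274 encodes the immune checkpoint ligand PD-L1, and Bcl2l11 encodes Bim, a protein that promotes apoptosis. D14Ertd668e and Bcl2l11 were well above background on all 4 arrays, and their log2 ratios were 1.37 and 1.52 in WT MEFs and 3.78 and 3.23 in p53-/- MEFs. Both were below the brightest negative control in untreated p53-/- MEFs, Bcl2l11 also in untreated WT MEFs. Set against that control in p53-/- MEFs, they were 12.4-fold and 2.79-fold higher. The other 6 were not well above background in untreated MEFs, so their place in this order rests partly on values at background. With 4 arrays, many genes can share such a pattern.

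Leukocytes carry these GTPases too, and their markers were looked at beside them. Of 15 leukocyte markers, 10 to 12 were well above background per array, and their summed level was 1742% in untreated WT, 2434% in treated WT, 1929% in untreated p53-/- and 1617% in treated p53-/- MEFs. The sum was lowest in treated p53-/- MEFs, but 1 Itgam sequence made up most of it, at 1266%, 1743%, 1508% and 1170% in the same order. The median marker was instead highest there, at 12.2%, 11.6%, 9.06% and 18.9%. Further Itgam sequences were far dimmer. One stood at 9.89% in untreated WT MEFs and was not well above background on the other arrays. Another stood at 3.72 to 6.07% over the 4 arrays, near the negative controls. Of 10 markers measured in p53-/- MEFs, 2 were at least 2-fold higher with doxorubicin, Cd74 and H2-Ab1, both with a log2 ratio of 1.14 and both of the antigen presentation machinery that interferon is known to raise, though both were less than 2-fold above the brightest negative control of untreated p53-/- MEFs. In WT MEFs 1 of 11 was at least 2-fold higher, Cd14 with 3.74, with 1 more by its bound. Of all measured genes, 9.24% were that much higher in p53-/- and 11.0% in WT MEFs. The marker with the bound was Cd68, well above background only in treated WT MEFs, at 11.6%. By the bound this was at least 4.25-fold higher than in untreated WT MEFs, or 2.23-fold against their brightest negative control. Csf1r, Emr1, Laptm5 and Tyrobp were present on all 4 arrays, and with doxorubicin in p53-/- MEFs their log2 ratios were 0.06, 0.58, 0.63 and −0.84. Ptprc, which marks all leukocytes, stood at 3.15 to 4.31%, near the negative controls. Lyz2 went from 12.2% in untreated WT and 5.46% in untreated p53-/- to 1.52% in treated p53-/- MEFs, where it was not well above background, as was H2-Aa on every array.

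Markers of other cell types were looked at in the same way. Of 6 endothelial markers, 2 to 4 were well above background per array, with summed levels of 371% in untreated WT, 450.3% in treated WT, 296% in untreated p53-/- and 255% in treated p53-/- MEFs. Vwf, which endothelial cells secrete, was higher with doxorubicin in both genotypes. It went from 3.32 to 28.1% in WT MEFs, a log2 ratio of 3.08, or 5.39-fold against the brightest negative control. In p53-/- MEFs it was well above background only when treated, at 21.4%. The Kdr sequence that stood for the gene was 0.20 in WT and −0.35 in p53-/- MEFs, its second sequence 2.68 and 1.70. Cdh5 and Tie1 were not well above background on any array. Of 6 epithelial markers, 3 to 5 were well above background per array. Their summed level was 574% in untreated WT, 1050.1% in treated WT, 537% in untreated p53-/- and 1792% in treated p53-/- MEFs, highest where the GTPases were highest. Most of it was the keratin Krt18, at 444% in untreated and 1664% in treated p53-/- MEFs, a log2 ratio of 1.91, while Epcam was not well above background on any array. Krt8 was −0.46 in WT and 0.32 in p53-/- MEFs. Cdh1 was well above background only with doxorubicin, at 3.09% in WT and 5.35% in p53-/- MEFs. Other keratins went the other way. Krt5 was well above background only in treated WT MEFs, at 52.3%, and its second sequence on no array. Krt14 stood at 45.2% in treated WT and 19.7% in treated p53-/- MEFs. The part of other cell types in the levels of the GTPases was not tested.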

How the data were processed

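Agilent one-color arrays measured 4 RNA samples of MEFs. Per the labels, Cy3 labeling started from 200 ng of total RNA. The authors read the arrays with Agilent Feature Extraction (10.7.3.1), and the deposited processed intensities were corrected for background and spatial trend, but not scaled between arrays. The deposited flags, other columns coded 0 or 1, mark spots well above background, saturated or outlying. The authors' value table equaled the processed intensities at every spot within a relative tolerance of 1e-05. Here, control and outlier spots were left out, log2 signals of repeat spots were averaged, and the array's 75th percentile was subtracted. Where a gene had several probes, the one brightest on average stood for it. The number of arrays limits precision, and no p-value was calculated. A lower bound sets a measured value against the dimmest signal that passed this flag.

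Probe positions are mm9. RefSeq (GRCm38.p6) was used for current names and promoters. The genes and lists were chosen with earlier results of these data known. Named were all members, up to 8 genes per related list with the largest ratio, the 8 nearest patterns and Trp53. Genes named for a bound, for lying beside the clusters or as markers were chosen after their values were seen. So were the further ATG8 and conjugation genes. Alternatives were scaling to the median, quantile normalization, normexp (limma, offset 50), no filter, the brightest negative control as limit, the mean of probes, the value table and 1.5-fold and 3-fold thresholds. Naming by accession, the other sequence of a gene and the same alternatives for the difference of responses were added after the data were seen. List counts and medians include some genes whose own values are not reported here. The steps were tested on simulated data. Python 3.11.15, numpy 2.4.6, pandas 2.3.3, matplotlib 3.10.9, R 4.3.3 and limma 3.58.1 were used.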

Additional observations from a re-analysis of the deposited data

Results flagged for a closer look

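Ifi47 was lower with doxorubicin in WT MEFs (log2 ratio −0.38) and higher in p53-/- MEFs (2.74). The ratios pointed in opposite directions and lay 3.12 apart, but with 1 array per condition the difference was not tested.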

How the results depend on the processing

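No paired analysis was possible because each condition had 1 array, and slide as a block was not run because there was 1 slide. Over the alternatives that kept the 2-fold threshold, 4 or 5 genes were that much higher with doxorubicin in WT MEFs and 6 to 9 in p53-/- MEFs. The count of 6 came from the brightest negative control as limit, which left 6 genes to compare. At 1.5-fold and 3-fold, the counts were 6 and 3 in WT MEFs and 9 and 9 in p53-/- MEFs. The shares of all genes at these other thresholds are not given here. Between the untreated genotypes, the count of 0 became 1 with no filter on dim probes and 1 with a 1.5-fold threshold. With doxorubicin, 5 to 7 genes were at least 2-fold higher in p53-/- than in WT MEFs, 5 where only 7 genes were measured. This count was 8 at 1.5-fold and 7 at 3-fold. A response at least 2-fold larger in p53-/- MEFs was found for 5 to 8 genes, with 8 at 1.5-fold and 5 at 3-fold. Under scaling to the array median, the median log2 ratio of all genes was −0.27 in WT and −0.30 in p53-/- MEFs, and this scaling turned the WT ratio of Iigp1 to −0.03 and the untreated ratio of Irgm1 between genotypes to −0.01. The median of the 9 genes in p53-/- MEFs was 2.85 with normexp and 2.74 with genes named by accession, and 4.48 both with the mean of the probes and with the other sequence of a gene, which left 7 genes. No alternative turned a ratio of at least 2-fold around. Signals near the negative controls limit the fold changes from untreated p53-/- MEFs.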
